A study of Bubalus bubalis with 2 samples.

Results

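Collagen genes made up 40 of the 20905 rows of the gene table of buffalo salivary RNA, taken as the rows whose symbol is COL, a type number, A and a chain number. They belong to 25 collagen types and were grouped as fibrillar (types I, II, III, V and XI, 9 genes), basement membrane (type IV, 6 genes), beaded (type VI, 4 genes) and all others (21 genes). The rows were picked by gene name and by no measured value. Earlier results of these data were known when the members and rules were chosen. The descriptions in the table name a collagen, or the gene itself, on all 40 rows, and 39 of the 40 symbols (all but COL6A6) are also in the RefSeq annotation of the buffalo assembly NDDB_SH_1.

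The study sequenced cell-free total RNA of saliva from Murrah water buffalo (Bubalus bubalis), a river-type dairy breed. It compared 1 library taken at estrus, the stage of sexual receptivity, with 1 library taken at diestrus, the luteal stage. The labels used here give no treatment and neither the age of the animals nor how many animals a library stands for. With 1 library per stage there is no spread between animals, so every difference below describes these 2 libraries and has no test of the stages behind it.

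Collagens are proteins of the extracellular matrix built from 3 chains wound into a triple helix. Fibrillar collagens form the cables that give connective tissue its tensile strength, type IV forms the sheet-like network under epithelia and around vessels and muscle cells, and type VI forms beaded microfibrils that link cells to the surrounding fibrils. In most tissues fibroblasts make the fibrillar and type VI chains. Saliva itself is a secretion, whereas the connective tissue of the glands and of the oral mucosa is rich in collagen.

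Levels are FPKM, which divides the fragments of a gene by its transcript length and by the library size, so that genes can be set against each other per length. FPKM values of short loci lay on whole-fragment steps, from which each fragment on 1 kb of effective length stood for 0.232 FPKM at estrus and 1.25 FPKM at diestrus. A value of 3 fragments per kb, used here as the lower limit of a readable level, was thus 0.697 FPKM at estrus and 3.75 FPKM at diestrus. The effective length of these spliced genes is unknown, so no counting interval is given. The whole table summed to 1016100 FPKM at estrus and 521566 FPKM at diestrus, and 4 rows (OPRM1, PPARGC1A, TBX15 and CSPG5) held 24.6% of the sum in estrus and 0.0386% in diestrus. On all 7 rows for markers of salivary acini and ducts, including AQP5, LPO and STATH, both libraries had a listed 0, so the labelled source could not be recognised from its gland markers.

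Some collagen transcripts stood among the abundant ones of both libraries, whereas others were low or listed at 0. COL6A2 was rank 38 of the 8424 genes above 0 in estrus and rank 36 of the 9491 in diestrus, and COL1A1 was rank 82 in estrus and rank 23 in diestrus. All collagens together summed to 7805 FPKM at estrus and 8064 FPKM at diestrus. That was 0.768% of the FPKM sum in estrus and 1.55% in diestrus, or 1.02% in estrus and 1.55% in diestrus once the 4 rows named above were left out. In cell-free RNA, fewer source cells of a type and less RNA from each such cell cannot be told apart.

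Of the 40 genes, 17 were above 0 in both libraries, 3 in estrus alone, 5 in diestrus alone, and 15 were listed at 0 in both. Over all 20905 rows these numbers were 7344, 1080, 2147 and 10334, so there too more rows were above 0 in diestrus alone than in estrus alone. A gene was counted when its mean over both libraries was at least 1 FPKM, which 19 collagens met. The difference of each was log2((estrus FPKM + 1)/(diestrus FPKM + 1)), a scale that makes the change of low genes look smaller than it is. On that scale 7 of 19 counted collagens (36.8%) were at least 2-fold higher in estrus, against 31.3% of all 8269 counted genes, 5 of 19 (26.3%) were at least 2-fold lower, against 33.1% of all counted genes, and 7 lay between. As deposited, these shares are near those of all genes. Other scalings of the libraries moved the calls of all genes as well. With equal upper quartiles 7 collagens were higher and 7 lower, beside 25.4% and 39.4% of all counted genes. With equal FPKM sums 20 collagens were counted, 6 of them higher and 8 lower, beside 18.2% and 49.2%. With equal sums that leave out the 4 rows they were 7 and 7, beside 23.3% and 42.4%, and with equal medians 7 and 6, beside 29.9% and 34.5%. The median log2 ratio of the 19 counted collagens was 0.57, beside -0.016 for all counted genes, but COL12A1 and COL23A1 passed the filter through estrus alone. COL5A3, at 0.647 FPKM in diestrus, also met the mean of 1 FPKM through estrus, and COL2A1, at 0.443 FPKM in estrus, through diestrus. Over genes above 0 in both libraries the median was 0.17 for 17 collagens and 0.080 for 7344 genes.

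**Figure D1:**
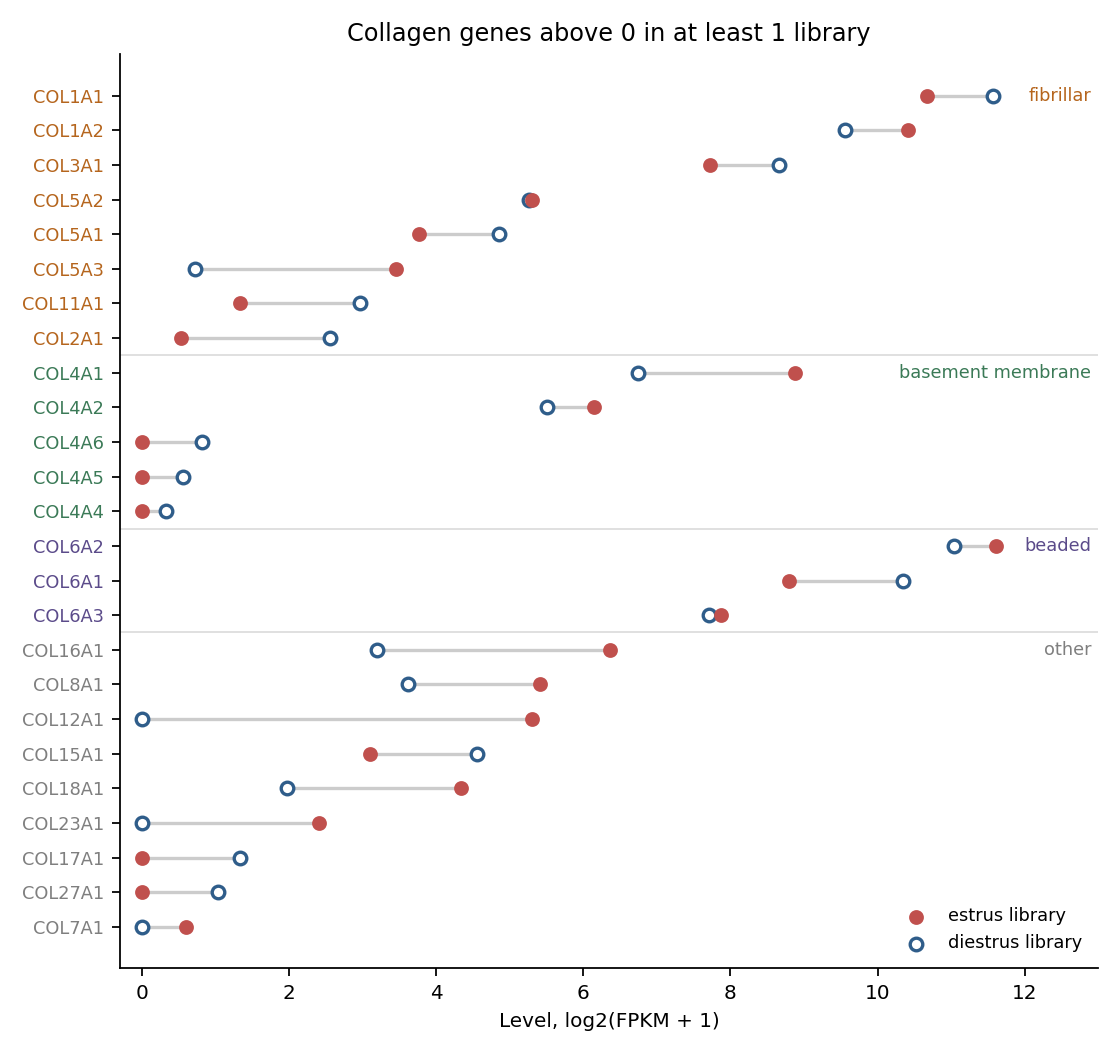
Levels of the 25 collagen genes above 0 in at least 1 library, as log2(FPKM + 1) on the horizontal axis, with the estrus library as filled circles and the diestrus library as open circles, grouped by class. COL1A1, COL1A2 and COL6A2 lie far to the right in both libraries, at 748 FPKM or more, whereas COL12A1 and COL23A1 lie at 0 in diestrus.

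The scaling shifts every ratio together, and all 4 alternatives shift it down. Against the values as deposited, the median log2 ratio of all counted genes moved by -0.38 with equal upper quartiles, by -0.95 with equal sums, by -0.55 with equal sums without the 4 rows and by -0.088 with equal medians. Ratios below 0 and lower calls could therefore not be lost. Of the 12 counted collagens with a ratio above 0, 7 stayed above 0 under every scaling, and COL1A2, COL5A2, COL4A2, COL6A2 and COL6A3 turned. Of the 7 collagens at least 2-fold higher in estrus, 6 stayed so under every scaling, and COL8A1 did not. The largest shift of scale was -0.96 log2. The 7 began at 1.80 or more and could not turn, and the 6 began at 2.13 or more and could not lose their calls. Only the smaller ratios above 0 and the call of COL8A1 were thus put to a check. Of the 6, COL12A1 and COL23A1 were listed at 0 in diestrus, and COL5A3 and COL18A1 lay there under 3 fragments per kb. Ratios between collagens within a library do not depend on the scaling, and they are given for each class.

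**Figure D2:**
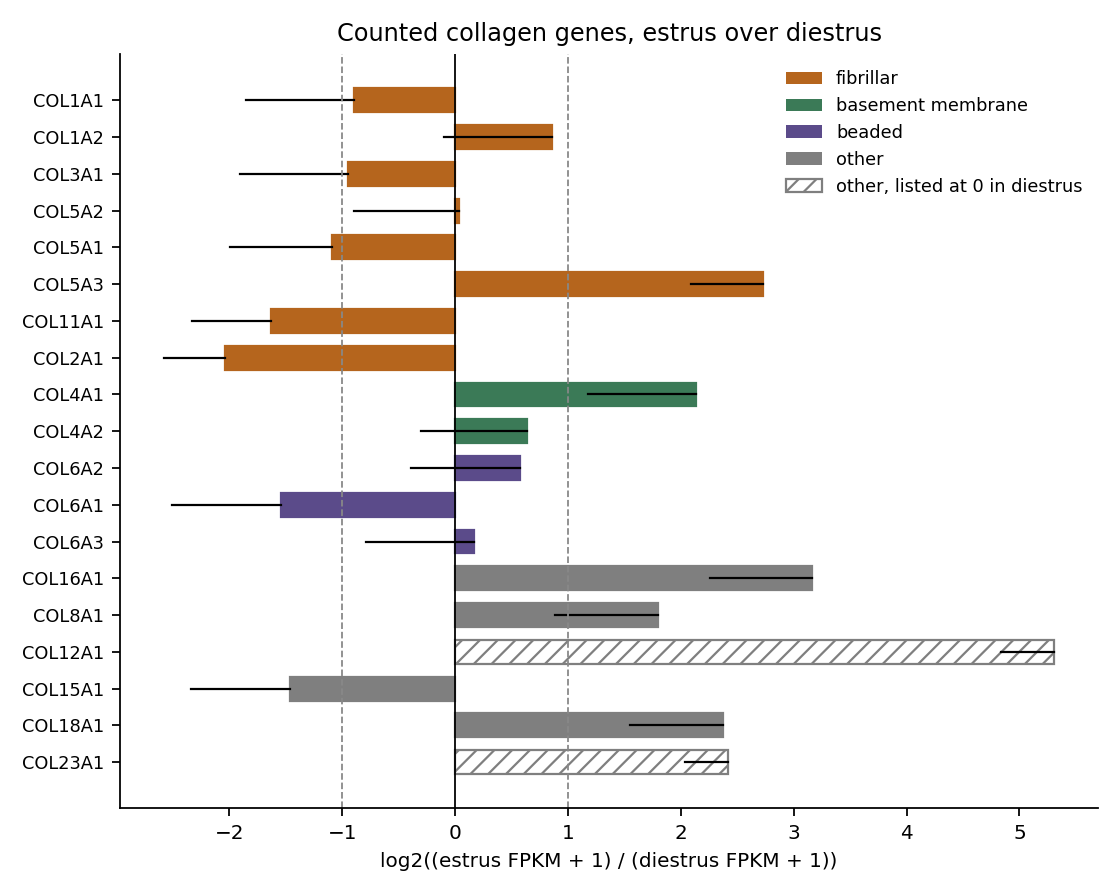
Log2 ratio of estrus over diestrus for the 19 counted collagens, on the log2(FPKM + 1) scale, with bars coloured by class, dashed lines at 2-fold, and thin black lines for the range over 5 scalings of the libraries. COL16A1 reached 3.17 and COL2A1 -2.03, and the hatched bars of COL12A1 and COL23A1 rest on a listed 0 in diestrus and are no measured fold.

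Among the fibrillar collagens, the type I chains were the most abundant in both libraries. COL1A1 (chromosome 19, positions 37088246 to 37104998), which encodes the alpha1 chain of type I collagen, stood at 1630 FPKM at estrus and 3029 FPKM at diestrus. Positions are those of the table, whose genome build is not given in the sources used here. Of its rows, 4910 carry Ensembl cattle identifiers, so the positions are not to be read as buffalo positions. COL1A2 (chromosome 4, positions 11624470 to 11661163), which encodes the alpha2 chain, stood at 1361 FPKM at estrus and 748 FPKM at diestrus. The 2 chains of type I collagen thus pointed opposite ways, with a log2 ratio of -0.89 for COL1A1 and 0.86 for COL1A2, although with equal FPKM sums COL1A2 turned to -0.099. Both lay within 2-fold as deposited, and COL1A1 was more than 2-fold lower in estrus under 3 of the 4 alternative scalings. Within a library, COL1A1 was 1.20 times COL1A2 in estrus and 4.05 times in diestrus. The usual type I molecule holds a pair of alpha1 chains for each alpha2 chain, which is a proportion of protein and not of RNA.

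COL3A1 (chromosome 2, positions 7318227 to 7356937), whose chains form the homotrimer of distensible tissues, stood at 210 FPKM at estrus and 404 FPKM at diestrus. Its log2 ratio of -0.94 was close to that of COL1A1, and under the 4 alternative scalings it was more than 2-fold lower in estrus. The ratio of COL1A1 to COL3A1 was therefore near the same in both libraries, at 7.78 in estrus and 7.49 in diestrus, whereas that of COL1A2 to COL3A1 was 6.49 in estrus and 1.85 in diestrus. Of these 3 genes, COL1A1 and COL3A1 were lower in estrus in near the same proportion and COL1A2 was not.

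Type V collagen sits inside type I fibrils and sets their diameter. COL5A2 stood at 38.5 FPKM at estrus and 37.4 FPKM at diestrus, a log2 ratio of 0.039 that was negative under the 4 alternative scalings, at -0.90 with equal sums. COL5A1 stood at 12.6 FPKM at estrus and 28.0 FPKM at diestrus, which made it 2.13-fold lower in estrus with a log2 ratio of -1.09. COL5A3, a chain of more restricted tissue range, stood at 9.91 FPKM at estrus and 0.647 FPKM at diestrus, with a log2 ratio of 2.73, and it was the only 1 of the 8 counted fibrillar genes at least 2-fold higher in estrus. The diestrus value of COL5A3 corresponds to 0.517 fragments per kb, under the limit of 3, so the size of its ratio is not readable at this depth. COL5A1 was 0.328 times COL5A2 in estrus and 0.749 times in diestrus.

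The cartilage fibril genes were low in both libraries. COL2A1, the main collagen of cartilage, stood at 0.443 FPKM at estrus and 4.91 FPKM at diestrus, with a log2 ratio of -2.03. COL11A1, whose chain forms the core of cartilage fibrils, stood at 1.52 FPKM at estrus and 6.80 FPKM at diestrus, with a log2 ratio of -1.63. COL2A1 in estrus lay under the limit of 3 fragments per kb, at 1.91. COL11A2, the partner chain of COL11A1, was listed at 0 in both libraries. Of 6 rows for cartilage cell markers, COMP, MATN1, MATN3 and SNORC were listed at 0 in both libraries. HAPLN1 and ACAN were listed at 0 in estrus and at 0.948 and 0.421 FPKM in diestrus, each under 1 fragment per kb. In all, 8 of the 9 fibrillar genes were counted, of which 1 was at least 2-fold higher in estrus, 3 were lower and 4 lay between, with a median log2 ratio of -0.92. Of these, COL5A3 met the mean of 1 FPKM through estrus and COL2A1 through diestrus. The FPKM of the fibrillar genes summed to 3264 in estrus and 4260 in diestrus.

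**Figure D3:**
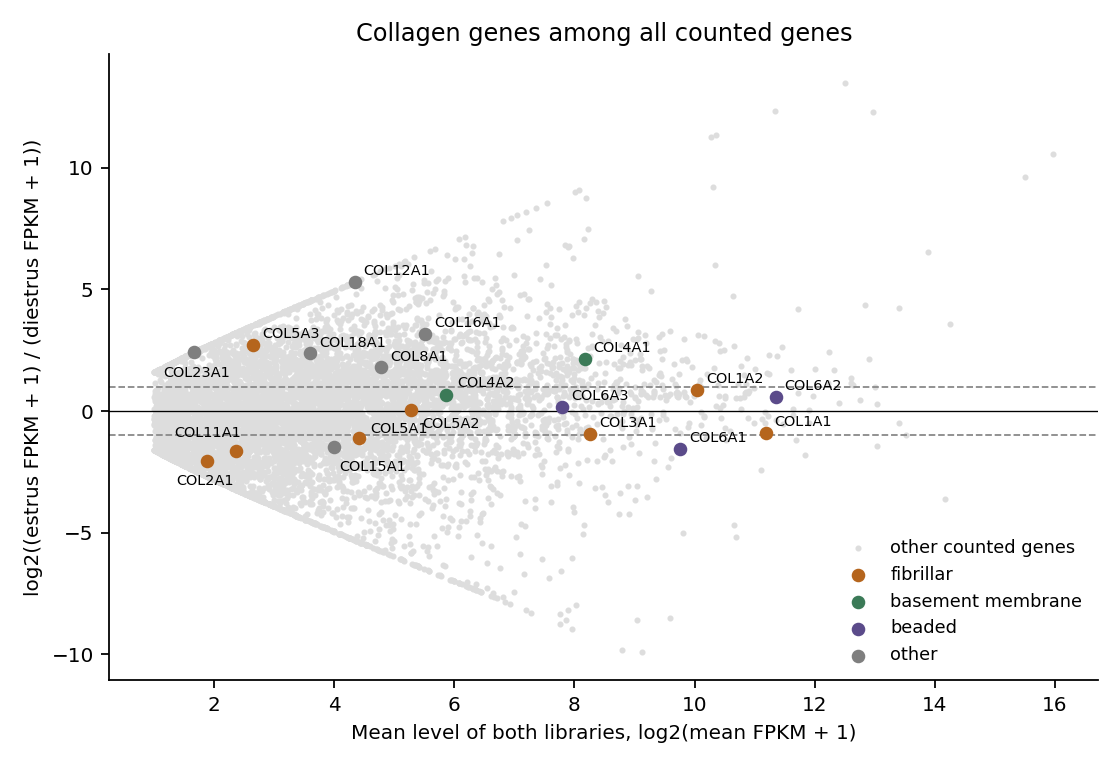
Log2 ratio of estrus over diestrus against the mean level of both libraries for all 8269 counted genes, with the 19 counted collagens coloured by class. The collagens lie among the other genes, and those of highest mean, COL6A2 and COL1A1, lie within the dashed 2-fold lines.

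Basement membrane collagen was represented by the pair of chains found in nearly all tissues. COL4A1 (chromosome 12, positions 88876125 to 89009422) stood at 469 FPKM at estrus and 106 FPKM at diestrus, 4.39-fold higher in estrus with a log2 ratio of 2.13. Under the 4 alternative scalings COL4A1 stayed at least 2-fold higher in estrus, with a lowest log2 ratio of 1.18. The shifts of scale were too small to remove this call. COL4A2 (chromosome 12, positions 89112423 to 89165255) stood at 69.9 FPKM at estrus and 44.5 FPKM at diestrus, a log2 ratio of 0.64 that turned to -0.30 with equal sums. As proteins, COL4A1 and COL4A2 join in 1 molecule, again as a pair of alpha1 chains for each alpha2 chain. In RNA, COL4A1 was 6.71 times COL4A2 in estrus and 2.39 times in diestrus.

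The other type IV chains have a narrower range, such as the glomerular basement membrane of the kidney for COL4A3, COL4A4 and COL4A5. COL4A4, COL4A5 and COL4A6 were listed at 0 in estrus and at 0.257, 0.476 and 0.763 FPKM in diestrus, each under 1 fragment per kb. COL4A3 was listed at 0 in both libraries. None of these 4 genes was counted. Summed over all 6 genes, type IV collagen stood at 539 FPKM at estrus and 152 FPKM at diestrus, nearly all of it from COL4A1 and COL4A2. The 2 counted genes had a median log2 ratio of 1.39.

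Type VI collagen had the highest summed level of any type in estrus. COL6A2 (chromosome 1, positions 147542825 to 147572432) stood at 3131 FPKM at estrus and 2103 FPKM at diestrus, with a log2 ratio of 0.57 as deposited and -0.39 with equal sums. COL6A1 (chromosome 1, positions 147404396 to 147423644) stood at 443 FPKM at estrus and 1294 FPKM at diestrus, 2.92-fold lower in estrus with a log2 ratio of -1.54. COL6A3 (chromosome 3, positions 117409071 to 117482330), which encodes the longest of these chains, stood at 234 FPKM at estrus and 208 FPKM at diestrus, with a log2 ratio of 0.17 as deposited and -0.79 with equal sums. COL6A6, a further chain, was listed at 0 in both libraries.

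As proteins, the chains of type VI collagen assemble 1 to 1 to 1, which sets no proportion for their RNA. The RNA levels of the 3 genes were far apart. COL6A1 was 0.141 times COL6A2 in estrus and 0.615 times in diestrus, a difference of 4.35 times that no scaling can change. COL6A3 was 0.0747 times COL6A2 in estrus and 0.0988 times in diestrus. COL6A1 was 1.89 times COL6A3 in estrus and 6.23 times in diestrus, so its proportion to each of the other chains was lower in estrus, while the order COL6A2, COL6A1, COL6A3 was the same in both libraries. The 3 genes summed to 3808 FPKM at estrus and 3604 FPKM at diestrus, with 0 at least 2-fold higher in estrus, 1 lower and 2 between, and their median log2 ratio of 0.17 turned to -0.22 with equal upper quartiles.

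**Figure D4:**
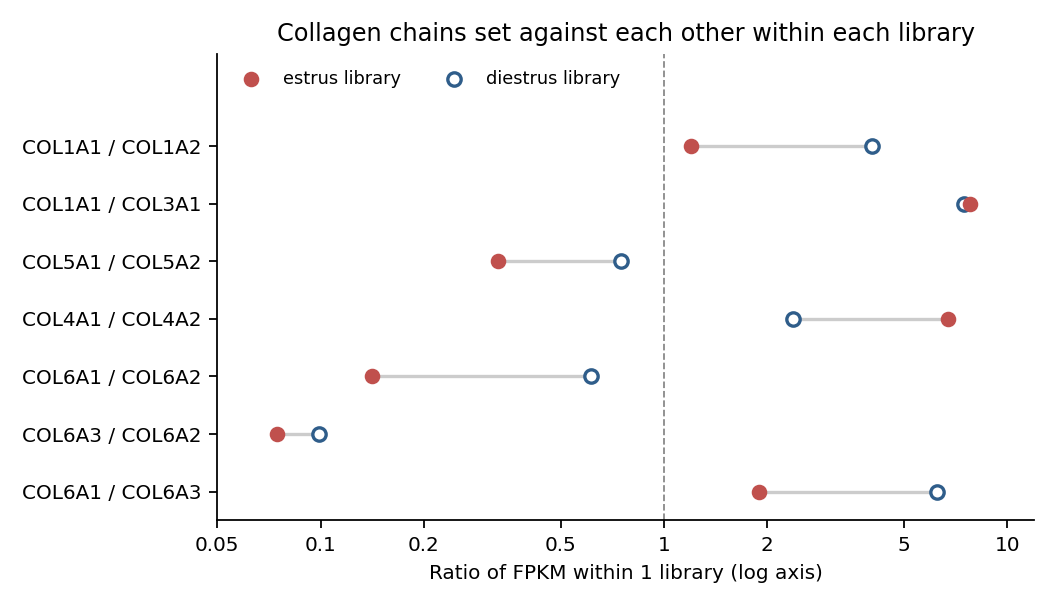
Ratio of the FPKM of 2 collagen chains within 1 library, on a log axis, with estrus as filled and diestrus as open circles and a dashed line at equal levels. COL1A1 to COL1A2, COL6A1 to COL6A2 and COL6A1 to COL6A3 were lower in estrus than in diestrus, COL4A1 to COL4A2 was higher in estrus (6.71 in estrus, 2.39 in diestrus), and COL1A1 to COL3A1 lay at 7.78 in estrus and 7.49 in diestrus.

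Among the remaining types, 6 of 21 genes were counted, and 5 of these 6 were at least 2-fold higher in estrus. Of these 5, COL12A1 and COL23A1 passed the filter through their estrus value alone, so the count of 5 is no support for a direction. Over the 4 genes above 0 in both libraries the median log2 ratio was 2.09. Collagens of types XII and XVI are fibril-associated collagens, which decorate the surface of fibrils or join them to other matrix. COL16A1 stood at 81.3 FPKM at estrus and 8.17 FPKM at diestrus, 8.98-fold higher in estrus with a log2 ratio of 3.17. COL12A1 stood at 38.5 FPKM in estrus and was listed at 0 in diestrus. A level of 38.5 FPKM corresponds to 30.8 fragments per kb at the depth of the diestrus library. The other fibril-associated genes, COL9A1, COL9A2, COL9A3, COL14A1, COL20A1 and COL22A1, were listed at 0 in both libraries.

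COL8A1, a short-chain network collagen of vessel walls and of the cornea, stood at 41.7 FPKM at estrus and 11.3 FPKM at diestrus, with a log2 ratio of 1.80 that dropped to 0.88, under 2-fold, with equal sums. Its partner COL8A2 and the related COL10A1 of growth plate cartilage were listed at 0 in both libraries. COL18A1 and COL15A1 are basement membrane proteoglycans with interrupted triple helices, and COL18A1 is the source of endostatin. COL18A1 stood at 19.3 FPKM at estrus and 2.91 FPKM at diestrus, with a log2 ratio of 2.37. COL15A1 stood at 7.54 FPKM at estrus and 22.5 FPKM at diestrus, with a log2 ratio of -1.46, and it was the only counted gene of the remaining types lower in estrus. COL18A1 was 2.55 times COL15A1 in estrus and 0.129 times in diestrus. The diestrus value of COL18A1, at 2.32 fragments per kb, lay under the limit of 3.

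Of the transmembrane and anchoring collagens only COL23A1 was counted. COL23A1, a transmembrane collagen, stood at 4.33 FPKM or 18.6 fragments per kb in estrus and was listed at 0 in diestrus, where that level would correspond to 3.46 fragments per kb. COL17A1, the hemidesmosome collagen of basal keratinocytes, was listed at 0 in estrus and at 1.52 FPKM in diestrus. COL7A1, the anchoring fibril of stratified epithelia, stood at 0.520 FPKM in estrus and was listed at 0 in diestrus. COL27A1, which by sequence is also fibrillar, was listed at 0 in estrus and at 1.04 FPKM in diestrus. COL13A1, COL25A1, COL26A1 and COL28A1 were listed at 0 in both libraries. Values of COL17A1, COL7A1 and COL27A1 all lay under 3 fragments per kb of their own library. A listed 0 can be a failed estimate and is not read as absence.

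The make-up of the collagen RNA, which also does not depend on the scaling, was dominated by types I and VI. Type VI made up 48.8% of all collagen FPKM in estrus and 44.7% in diestrus, and type I made up 38.3% in estrus and 46.8% in diestrus. Type IV made up 6.91% in estrus and 1.89% in diestrus. Type III made up 2.69% in estrus and 5.02% in diestrus. Relative to the summed type I chains, the summed type IV chains were 0.180 times in estrus and 0.0399 times in diestrus, and the summed type VI chains were 1.27 times in estrus and 0.954 times in diestrus. Type V kept a share of 0.782% in estrus and 0.820% in diestrus, and type XVI stood at 1.04% in estrus and 0.101% in diestrus.

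**Figure D5:**
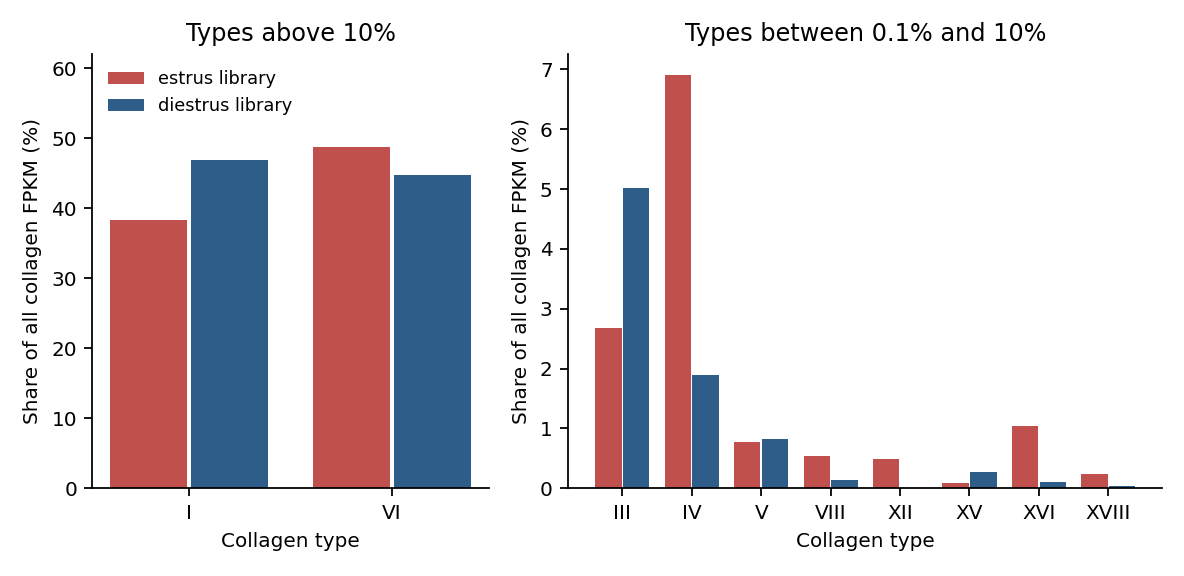
Share of all collagen FPKM held by each collagen type, in percent, with the estrus library as the left and the diestrus library as the right bar of each pair; the left panel shows the 2 leading types and the right panel the types between 0.1% and 10% in at least 1 library. Type IV holds 6.91% in estrus and 1.89% in diestrus, while types I and III hold the smaller share in estrus.

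A p-value under 1 in the authors' deposited table was held by 7 collagens, namely COL1A1, COL1A2, COL3A1, COL4A1, COL6A1, COL6A2 and COL6A3. Their p-values in the authors' deposited table ran from 0.223 for COL4A1 to 0.829 for COL6A3, and 0 of the 7 were called. Over all genes of the authors' deposited table, 49 of the 1253 with a p-value under 1 were called, which is 3.91%. These p-values compare 2 libraries and not the stages.

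Genes that make, bind and remodel collagen were described from lists of known members. Their counts stand beside 31.3% of all counted genes higher and 33.1% lower in estrus as deposited, and beside 18.2% higher and 49.2% lower with equal sums. Of the enzymes and chaperones that fold and modify procollagen, 20 of 21 rows were counted, 10 were at least 2-fold higher in estrus, 3 were lower and 7 lay between, with a median log2 ratio of 0.97. Of these, P4HA3 was listed at 0 in diestrus, and P3H2 and SEC24D at 0 in estrus, so each had its direction from the filter. With equal sums 5 were higher and 6 lower, and the median ran from 0.062 to 0.97 over the 5 scalings. SERPINH1, the collagen chaperone HSP47, stood at 1064 FPKM at estrus and 1217 FPKM at diestrus. P4HA2, a catalytic subunit of prolyl 4-hydroxylase, stood at 1901 FPKM at estrus and 218 FPKM at diestrus, and its partner subunit P4HB at 1006 FPKM at estrus and 660 FPKM at diestrus. PPIB, a prolyl isomerase of the same process, stood at 813 FPKM at estrus and 153 FPKM at diestrus. P4HA2 and PPIB were at least 2-fold higher in estrus under all 5 scalings, with log2 ratios of 3.12 and 2.41 as deposited. The shifts of scale were too small to remove these 2 calls.

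Procollagen is trimmed outside the cell by proteinases and then cross-linked by lysyl oxidases. Of 4 counted proteinases and enhancers, 3 were higher in estrus and 1 was lower, and the number higher ran from 1 to 3 over the scalings. ADAMTS2 and PCOLCE lost their calls, with lowest log2 ratios of 0.45 and 0.40. ADAMTS2, which removes the amino-terminal propeptide, stood at 144 FPKM at estrus and 54.0 FPKM at diestrus, and PCOLCE2, an enhancer of carboxy-terminal trimming, at 114 FPKM at estrus and 7.96 FPKM at diestrus. BMP1, the carboxy-terminal proteinase itself, stood at 4.86 FPKM at estrus and 24.6 FPKM at diestrus, with a log2 ratio of -2.12. Of the oxidases, LOX stood at 29.8 FPKM at estrus and 93.7 FPKM at diestrus, and LOXL1 at 320 FPKM at estrus and 121 FPKM at diestrus. LOXL2 stood at 500.1 FPKM at estrus and 443 FPKM at diestrus, with a ratio whose sign turned with the scaling. Over the 4 counted oxidases 2 were higher, 1 lower and 1 between, with a median of 0.78 that turned to -0.17 with equal sums, where 0 were higher.

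Proteoglycans that coat collagen fibrils included 7 counted genes, of which 1 was higher in estrus, 3 were lower and 3 lay between. Of the 3 lower genes, OGN was listed at 0 in estrus. DCN, decorin, stood at 1274 FPKM at estrus and 436 FPKM at diestrus, while FMOD, fibromodulin, stood at 904 FPKM at estrus and 2039 FPKM at diestrus. BGN stood at 2334 FPKM at estrus and 1370 FPKM at diestrus and LUM at 561 FPKM at estrus and 495 FPKM at diestrus, both with ratios whose sign turned with the scaling. DCN was under 2-fold with equal sums, at a log2 ratio of 0.58, and the list median of 0.18 turned to -0.78 with equal sums.

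Partners of type IV collagen in the basement membrane were far lower than COL4A1, apart from SPARC. Of 10 counted members 3 were higher in estrus, 2 were lower and 5 lay between, with a median log2 ratio of -0.11. Over the scalings the number higher ran from 1 to 3, the number lower from 2 to 4 and the median down to -0.96. LAMA1, 1 of the 3 higher, was listed at 0 in diestrus, and LAMB1 and LAMB2 lost their calls. LAMB1 and LAMB2, laminin beta chains, stood at 24.8 and 31.5 FPKM at estrus and at 8.05 and 14.6 FPKM at diestrus. NID1, nidogen, which links laminin to type IV collagen, stood at 4.87 FPKM at estrus and 24.9 FPKM at diestrus, and HSPG2, perlecan, at 0.873 FPKM at estrus and 6.12 FPKM at diestrus. NID1 and HSPG2 were the 2 lower genes, with log2 ratios of -2.14 and -1.93. Of these, HSPG2 met the mean of 1 FPKM through diestrus. NID2, the other nidogen, stood at 14.2 FPKM at estrus and 8.42 FPKM at diestrus, with a log2 ratio of 0.69 that turned to -0.19 with equal sums. SPARC, a collagen-binding protein, stood at 3903 FPKM at estrus and 3815 FPKM at diestrus, with a ratio whose sign turned with the scaling.

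Of the collagen receptors, 4 were counted, 3 of them higher in estrus and 1 between, and the number higher ran from 1 to 3 over the scalings. Of the 3, OSCAR was listed at 0 in diestrus and passed the filter through estrus alone, and DDR1 was under 2-fold with equal sums, at 0.90. The discoidin domain receptors DDR1 and DDR2 stood at 89.3 and 39.1 FPKM at estrus and at 24.2 and 6.92 FPKM at diestrus. ITGB1, the shared beta chain of the collagen-binding integrins, stood at 28.1 FPKM at estrus and 32.8 FPKM at diestrus, whereas ITGA2, ITGA10 and ITGA11 were listed at 0 in both libraries. Of the collagen-degrading enzymes 1 of 4 counted was higher in estrus and 3 lay between, with MMP14 at 150.0 FPKM at estrus and 56.1 FPKM at diestrus. With equal sums 0 of these were higher and 2 lower, and MMP14 stood at a log2 ratio of 0.45. CTSK, cathepsin K, stood at 2682 FPKM at estrus and 1392 FPKM at diestrus, with a ratio whose sign turned to -0.015 with equal sums. MMP2, gelatinase A, stood at 1082 FPKM at estrus and 1126 FPKM at diestrus. TIMP1, the metalloproteinase inhibitor of the study's title, stood at 36054 FPKM at estrus and 2988 FPKM at diestrus.

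Markers of cells that could have shed this RNA differed between the libraries in both directions. The marker counts stand beside 31.3% of all counted genes higher and 33.1% lower in estrus as deposited. With equal sums they stand beside 18.2% higher and 49.2% lower. Of 12 fibroblast markers 10 were counted, 5 were at least 2-fold higher in estrus, 2 were lower and 3 lay between, and FBLN1 and TCF21 were listed at 0 in both libraries. MFAP5, 1 of the 5, was listed at 0 in diestrus. With equal sums 2 were higher and 4 lower, and the list's median log2 ratio of 0.62 turned to -0.34. They summed to 18836 FPKM at estrus and 6692 FPKM at diestrus, with S100A4 alone at 14005 FPKM at estrus and 689 FPKM at diestrus. The 2 lower markers were VIM, at 2014 FPKM at estrus and 4579 FPKM at diestrus, and PDGFRA, at 0.782 FPKM at estrus and 26.8 FPKM at diestrus. Of these, PDGFRA met the mean of 1 FPKM through diestrus. Of 7 smooth muscle and pericyte rows, 4 of 5 counted genes were at least 2-fold higher in estrus under every scaling, while MYH11 and RGS5 were listed at 0 in both. These 4 began at log2 ratios of 2.28 or more, so the largest shift of scale, -0.96, could not remove their calls. The list summed to 12837 FPKM at estrus and 2466 FPKM at diestrus. Most of it was TAGLN, at 8173 FPKM at estrus and 1536 FPKM at diestrus, and ACTA2, at 4394 FPKM at estrus and 902 FPKM at diestrus. Of 10 oral squamous epithelium rows, 6 of 6 counted genes were lower in estrus by 2-fold or more, and the list summed to 7.06 FPKM at estrus and 601 FPKM at diestrus, while DSC3, DSG3, KRT4 and TP63 were listed at 0 in both. Of these 6, EPCAM, IVL and CDH1 were listed at 0 in estrus and passed the filter through diestrus alone, and KRT14 and KRT15 lay under 1 fragment per kb in estrus. KRT5 stood at 6.80 FPKM at estrus and 164 FPKM at diestrus. Of 8 endothelial markers only ESAM was counted, at 50.7 FPKM at estrus and 1.49 FPKM at diestrus, and CDH5, CLDN5, EMCN, PECAM1 and TEK were listed at 0 in both. The diestrus value of ESAM, at 1.19 fragments per kb, lay under the limit of 3, so the size of its difference is not readable. Marker lists of chondrocytes, osteoblasts, Schwann cells, neutrophils, macrophages and monocytes, lymphocytes and erythroid cells had between 0 and 2 counted genes each. The part of these cell types in the collagen differences was not tested.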

How the data were processed

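Saliva RNA of 1 estrus and 1 diestrus library was analysed from 1 table. Per the file headers, the authors deposited FPKM per gene and library, a log2 fold change of diestrus over estrus, a test statistic (a score that was not used), and p-values and q-values, which were copied. TopHat, Bowtie, Cufflinks and Cuffdiff are named per the submitters' processing notes; versions, genome build and any rescaling are not given in the sources used here. Of all rows, 4910 carry Ensembl cattle identifiers, so mapping across species can move a value.

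From these FPKM values, Python 3.11.15 and pandas 2.3.3 gave ratios with a pseudocount of 1 FPKM, counted genes with a mean of at least 1 FPKM, and called 2-fold differences. Collagens with a mean of at least 10 FPKM were named with values, as were other members, up to 4 leading genes of each list and any that a count of 5 or fewer singles out; other genes were named after their values were seen. The members, lists and rules were chosen with earlier results of these data known. The fragment step came from loci of 400 to 3000 bp less a fragment length of 185 bp, with 39 loci in estrus and 106 in diestrus on the step; the libraries' steps differed by 5.39 times, and by 5.37 times from gene-wise ratios. Tested on simulated libraries, the step erred by at most 0.481%. The simulation used the same model of FPKM as the estimate, so it checks the code and not the step of these libraries. Close paralogs can share reads; COL10A1 and COL26A1 overlap other rows. Alternatives changed scaling, pseudocount, filter, fold and members.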

Additional observations from a re-analysis of the deposited data

How the results depend on the processing

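The count of collagens higher in estrus, 7, ranged from 5 to 9 under the 12 alternatives, with 15 to 25 genes counted. Shares of all genes were worked out for the scalings alone, so the counts under other settings are no result about collagens. The count lower in estrus, 5, was 8 with equal sums, 3 with a mean of at least 10 FPKM, 1 with a pseudocount of 10 FPKM and 1 with a fold of 4. The median collagen log2 ratio, 0.57, was 0.19 with equal upper quartiles, -0.59 with equal sums, 0.018 with equal sums without OPRM1, PPARGC1A, TBX15 and CSPG5, 0.039 without a filter and 0.17 for genes above 0 in both libraries. The median of the beaded collagens, 0.17, was -0.22, -0.79 and -0.38 under the first 3 of these scalings. The median of the type IV collagens, 1.39, was -0.33 without a filter, which adds 3 genes listed at 0 in estrus. In these data every alternative scaling lowered the ratios. Of the other settings, the filters change which genes can be counted, the fold changes the limit of a call, and the pseudocount changes the ratios themselves. No paired analysis was possible because each stage has 1 library. Depth limits the diestrus values under 3.75 FPKM, as for COL5A3 and COL18A1. No replicate could be left out.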

Other observations

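Some collagen genes are neighbours in the table's genome, whose positions are not to be read as buffalo positions. COL3A1 and COL5A2, 19.7 kb apart on chromosome 2, had log2 ratios of -0.94 and 0.039. COL4A1 and COL4A2, 103 kb apart on chromosome 12, had log2 ratios of 2.13 and 0.64. COL6A2 and COL6A1, 119 kb apart on chromosome 1, had log2 ratios of 0.57 and -1.54, and COL18A1, 363 kb from COL6A1, had 2.37. COL9A3 and COL20A1, 263 kb apart on chromosome 13, were both listed at 0 in both libraries.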
